A study of Mytilus galloprovincialis with 16 samples.

Results

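Of the 1920 probes of a mussel cDNA array, 5 probes for nuclear genes of ATP synthase, cytochrome c and complex I are described here in the mantle of female Mytilus galloprovincialis. They comprise 2 probes for the beta subunit of ATP synthase (AJ625661 and AJ624752), 1 for its alpha subunit (atp5a1, AJ625646), 1 for cytochrome c (AJ624894) and 1 for a beta-type subunit of NADH dehydrogenase, that is complex I (AJ516388). The probes were selected by name on a list of 368 probes that changed across the female gonadal stages, and that list was itself made from these arrays. The scanner files name only clones, so each EMBL identifier was tied to the clone whose fitted changes at stages 2, 3 and 4 against stage 1 fell within 0.005 of the listed values. The 5 clones differed from the listed values by at most 0.0018, and the nearest clone that was not chosen differed by 0.0265. Because the stage changes chose the members, their log2 ratios in the direct comparisons are given as a description, and the number of members called by the fit over all probes stands only beside the share of all probes called.

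Oxidative phosphorylation takes place in the inner mitochondrial membrane. Complex I takes electrons from NADH, cytochrome c carries electrons from complex III to complex IV, and ATP synthase uses the proton gradient that these transfers build to make ATP. The alpha and beta subunits form the catalytic head of ATP synthase, with the catalytic sites lying mostly on the beta subunits. All of the genes described here are encoded in the nucleus in animals and their proteins are imported into mitochondria, while other subunits of complexes I, III, IV and V are encoded by the mitochondrial genome itself. In mussels the gonad ramifies through the mantle, so that a piece of mantle holds gonad, storage and muscle cells in proportions that change over the reproductive cycle. Growing oocytes are known to accumulate many mitochondria and stored transcripts.

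The 16 dual-colour arrays compared RNA from the mantles of single, wild-caught females of 4 gonadal stages from the Bizerta Lagoon, namely early (stage 1, November), development (stage 2, January), ripe (stage 3, February) and spawning (stage 4, March). No treatment is labelled, and month and stage cannot be told apart. The labels give mantle as the source of the RNA, whereas the methods name digestive gland pieces in the passage on extraction, and the levels of markers of both are given at the end. Each of 4 direct comparisons (stage 2 against 1, 3 against 2, 4 against 3, and 4 against 1, which closes the loop) had 4 arrays, with the dyes exchanged on 2 of the 4. The labels number the arrays 1 to 4 and do not say which animal was on which array, so that errors and p-values measure the spread between arrays.

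Between 44.5% and 92.4% of probe spots per channel exceeded the 95th percentile of the empty spots, and no member spot was saturated. One array of stage 3 against stage 2 (replicate 4) carries the label stage 4 in a single field against stage 3 and February elsewhere, and was used as stage 3. In 2 of 256 pairs of array and print-tip block (the patch of spots that 1 printing pin lays down) under 20% of probe spots exceeded the empty spots, against 58.8% or more in every other pair. The first was block 6 on replicate 1 of stage 2 against stage 1, with 10.8% of its probe spots above the empty spots. It holds the spots of AJ625661 and of cytochrome c, whose ratios on that array are therefore ratios of background. It also holds 2 of the mitochondrially encoded probes described below. The mean ratios of the 2 members in that comparison are given with and without that array, and their channel levels without it. The other values below include it unless stated. The second pair was block 4 on replicate 4 of stage 3 against stage 2 (8.75%), which holds no member.

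All log2 ratios below are of the later over the earlier stage, after normexp background correction and loess normalization, averaged over the 2 spots of a probe. A probe was called changed where limma's adjusted p (Benjamini-Hochberg, over 1920 probes) was under 0.05 and B, the log odds that a probe changed, was above 0. As the background for every count of members, 125 probes (6.51%) were called between stages 2 and 1, 36 (1.88%) higher and 89 (4.64%) lower. Between stages 3 and 2, 284 (14.8%) were called, 161 (8.39%) higher and 123 (6.41%) lower. Stages 4 and 3 gave 101 (5.26%) called, 57 (2.97%) higher and 44 (2.29%) lower. Stages 4 and 1 gave 144 (7.5%) called, 54 (2.81%) higher and 90 (4.69%) lower. The share of higher calls depended on the scaling: it was 28.8%, 56.7%, 56.4% and 37.5% in the 4 comparisons in this order, and 71.1%, 46.4%, 90.5% and 80.0% with median centring in place of loess.

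In the ripe mantle all 5 probes were higher than at the development stage, on each of the 4 arrays of that comparison. Cytochrome c and the AJ625661 probe for the ATP synthase beta subunit had mean ratios of 2.50-fold and 2.17-fold, while the alpha subunit, the second beta probe and the complex I subunit lay at 1.42-fold, 1.38-fold and 1.30-fold. The sign of this step held under every alternative tried for 4 of the 5, and the second beta probe was at -0.08 with median centring, with which the alpha subunit was at 0.00 and the complex I subunit at 0.06. Of the 5 members, 2 were called, both higher, beside 14.8% of all probes called and 8.39% called higher. The same contrast entered their selection, so that nothing is read from these counts.

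**Figure D1:**
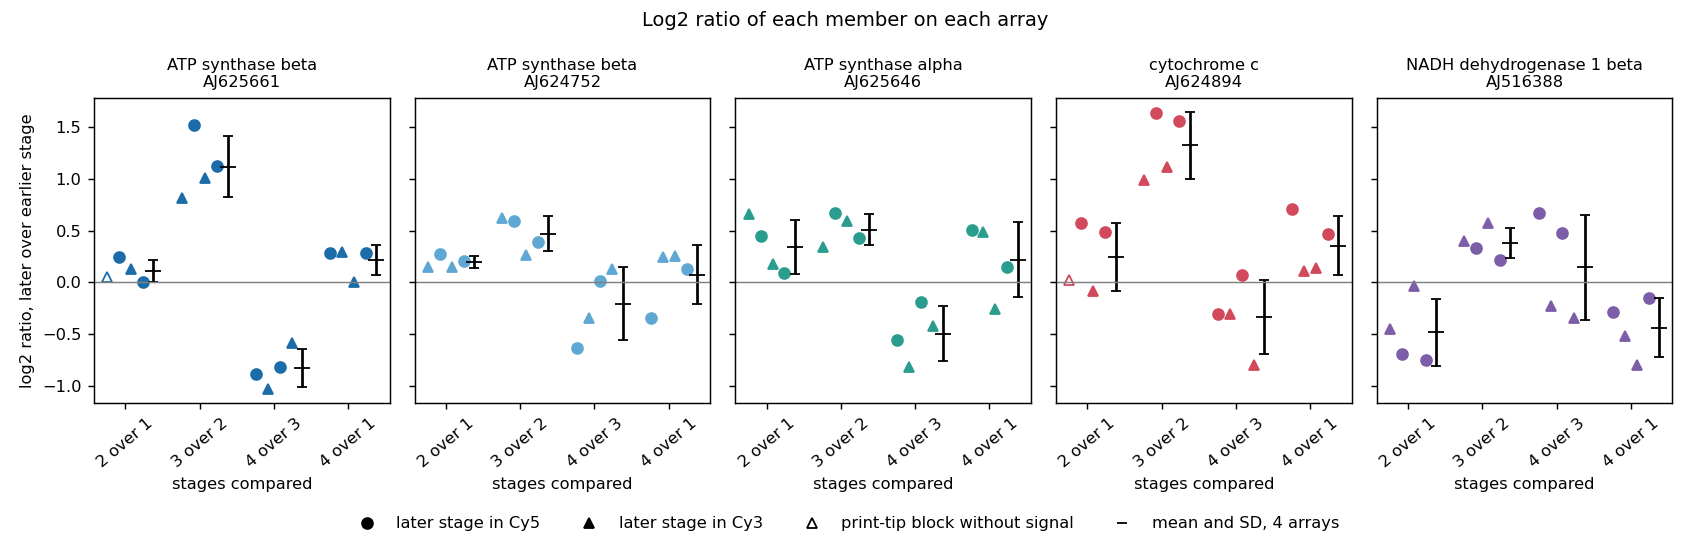
Log2 ratio (vertical axis, later over earlier stage) of each of the 5 members on each array, by the stages compared (horizontal axis). Circles and triangles are arrays with the later stage in Cy5 and in Cy3, open symbols are ratios from a print-tip block without signal, and bars give the mean and SD of 4 arrays. All 20 points of stage 3 over stage 2 lie above 0, from 0.22 to 1.64.

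For the catalytic beta subunit of ATP synthase, AJ625661 had log2 ratios of 0.82, 1.52, 1.00 and 1.13 in replicates 1 to 4 of stage 3 against stage 2, a mean of 1.12 ± 0.30 (SD, n = 4). The step to spawning ran the other way on every array, at -0.88, -1.03, -0.82 and -0.59 (mean -0.83 ± 0.18 (SD, n = 4), 0.562 of the ripe level). These 2 sets of arrays lie wholly on opposite sides of 0. The same ratios entered the choice of the probe, so nothing is read from that separation. Between stages 2 and 1 the ratios were 0.05, 0.25, 0.12 and 0.00, a mean of 0.11 ± 0.11 (SD, n = 4). The first of these comes from the block without signal, and the other 3 arrays had a mean of 0.12 ± 0.12 (SD, n = 3). Spawning against early mantle gave 0.28, 0.29, 0.00 and 0.28, a mean of 0.21 ± 0.14 (SD, n = 4), in which 3 arrays sit together and replicate 3 stands at 0. The ratios into and out of the ripe stage kept their signs with median centring (0.71 and -0.42), with which spawning mantle was 0.53 and development mantle 0.32 above early mantle. It was the only member called between stages 4 and 3, where 1 of 5 was called, beside 5.26% of all probes and 2.29% called lower. With median centring it was not called.

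The second beta probe, AJ624752, showed the same direction with a smaller step. Its ratios of stage 3 against stage 2 were 0.63, 0.59, 0.27 and 0.39, a mean of 0.47 ± 0.17 (SD, n = 4). Every one of these lies below every one of the AJ625661 ratios in that comparison. The step to spawning was -0.64, -0.34, 0.02 and 0.13, a mean of -0.21 ± 0.35 (SD, n = 4), with 2 arrays below 0 and 2 above it, and the mean was 0.33 with median centring. Its ratios between stages 2 and 1 were close together at 0.15, 0.27, 0.15 and 0.20 (mean 0.19 ± 0.06 (SD, n = 4)), all above 0, although the mean was -0.04 with print-tip loess and 0.80 with median centring. Between stages 4 and 1 it was at -0.35, 0.25, 0.26 and 0.13, a mean of 0.07 ± 0.29 (SD, n = 4), with replicate 1 below 0 and the others above, and the mean was 0.90 with median centring.

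Within each array, AJ625661 less AJ624752 averaged 0.65 ± 0.32 (SD, n = 4) between stages 3 and 2 and was above 0 on 4 of 4 arrays. With print-tip loess, which put AJ624752 at 0.80 and had 3 members called, this gap was 0.27 ± 0.44 (SD, n = 4) and above 0 on 3 of 4 arrays. The difference was -0.62 ± 0.26 (SD, n = 4) between stages 4 and 3 and below 0 on 4 of 4 arrays. Between stages 2 and 1 it was -0.09 ± 0.08 (SD, n = 4) and below 0 on 4 of 4 arrays, but 0.12 ± 0.05 (SD, n = 4) and above 0 on 4 of 4 with print-tip loess. Without the array on which AJ625661 had no signal it was -0.08 ± 0.10 (SD, n = 3) and above 0 on 0 of 3 arrays. With plain background subtraction it was -0.07 ± 0.18 (SD, n = 3) and above 0 on 2 of 3 arrays. Spawning against early mantle gave 0.14 ± 0.37 (SD, n = 4), within the spread of the arrays, and -0.36 ± 0.05 (SD, n = 4) with median centring. The 2 probes carry the same gene description, and whether they are of 1 transcript or of different ones was not tested.

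The alpha subunit, AJ625646, kept close to the second beta probe in the ripe step, with ratios of 0.34, 0.67, 0.59 and 0.43 (mean 0.51 ± 0.15 (SD, n = 4)). AJ624752 less AJ625646 was -0.04 ± 0.25 (SD, n = 4) there, while AJ625661 less AJ625646 was 0.61 ± 0.20 (SD, n = 4) and above 0 on every array. At spawning the alpha subunit was below the ripe level on each array, at -0.56, -0.82, -0.19 and -0.42, but its mean of -0.50 ± 0.26 (SD, n = 4) became 0.06 with median centring. It was the member with the highest ratio between stages 2 and 1, where the arrays gave 0.66, 0.45, 0.17 and 0.09, a mean of 0.34 ± 0.26 (SD, n = 4). Between stages 4 and 1 the arrays ran from -0.26 to 0.50, a mean of 0.22 ± 0.36 (SD, n = 4), and replicate 3 alone was below 0. With median centring these means were 0.85 and 1.15. On replicate 4 of that comparison the 2 spots of the probe gave 0.77 and -0.47, the widest gap between spots among the 80 member ratios.

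Cytochrome c, AJ624894, had the highest ripe step of the 5, at 0.99, 1.64, 1.11 and 1.56, a mean of 1.32 ± 0.32 (SD, n = 4). The 2 higher values are those of the arrays with stage 3 in Cy5. On each of these arrays cytochrome c exceeded AJ625661, by 0.21 ± 0.15 (SD, n = 4). Between stages 4 and 3 its ratios were -0.31, -0.31, 0.07 and -0.80, and the mean of -0.34 ± 0.36 (SD, n = 4) was 0.16 with median centring. The difference from AJ625661 was 0.50 ± 0.49 (SD, n = 4) in that comparison and above 0 on 3 of 4 arrays. Its ratios between stages 2 and 1 were 0.02, 0.57, -0.09 and 0.48, a mean of 0.25 ± 0.33 (SD, n = 4). Without the first, from the block without signal, the mean was 0.32 ± 0.36 (SD, n = 3). Stage 4 against stage 1 gave 0.71, 0.11, 0.13 and 0.47 (mean 0.35 ± 0.29 (SD, n = 4)), above 0 on all arrays. With median centring the means of stages 2 and 4 against stage 1 were 0.89 and 1.56.

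The complex I subunit, AJ516388, was the member whose course differed. It was lower in development than in early mantle on each of 4 arrays, at -0.46, -0.69, -0.04 and -0.75, a mean of -0.48 ± 0.32 (SD, n = 4) or 0.715 of the early level. None of the other 4 members had a mean below 0 in that comparison, and AJ625661 exceeded AJ516388 on each array, by 0.59 ± 0.33 (SD, n = 4). On replicate 1 of these arrays the AJ625661 ratio is a ratio of background, from the block without signal. Into the ripe stage the complex I subunit was at 0.40, 0.33, 0.57 and 0.22, a mean of 0.38 ± 0.15 (SD, n = 4), the lowest of the 5. Spawning mantle was lower than early mantle for this probe on each array, at -0.29, -0.52, -0.80 and -0.15, a mean of -0.44 ± 0.28 (SD, n = 4), whereas the mean was 0.19 with median centring. Between stages 4 and 3 the values split by dye, 0.67 and 0.48 with stage 4 in Cy5 and -0.23 and -0.35 with stage 4 in Cy3, so that the mean of 0.14 ± 0.51 (SD, n = 4) has no settled direction. That mean was -0.03 without replicate 1 and -0.01 with print-tip loess. In the comparisons of stages 2 and 1 and of stages 4 and 1 none of the 5 members was called (0 of 5, beside 6.51% and 7.5% of all probes).

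Fitted over all 16 arrays by least squares, the log2 change against stage 1 put the peak of 4 members at the ripe stage. AJ625661 was at 0.06 at stage 2, 1.13 at stage 3 and 0.26 at stage 4, with standard errors of 0.09, 0.11 and 0.09. AJ624752 was at 0.10, 0.47 and 0.17, and the alpha subunit at 0.31, 0.78 and 0.25, with standard errors between 0.11 and 0.13. Cytochrome c was at 0.03, 1.13 and 0.57, with standard errors of 0.16, 0.19 and 0.16. The ripe value thus had the same size for cytochrome c and AJ625661, and the spawning value of cytochrome c was the highest of the 5. The complex I subunit was at -0.60, -0.34 and -0.32, with standard errors of 0.15, 0.17 and 0.15, but its stage 4 value was 0.04 without the arrays of stage 4 against stage 1, and its stage 3 value ran from -0.58 to -0.10 over the alternatives. These are the values that chose the members. With the array of the conflicting label taken as stage 4, AJ625661 was at -0.03, 1.14 and 0.35 and cytochrome c at -0.05, 1.08 and 0.65.

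**Figure D2:**
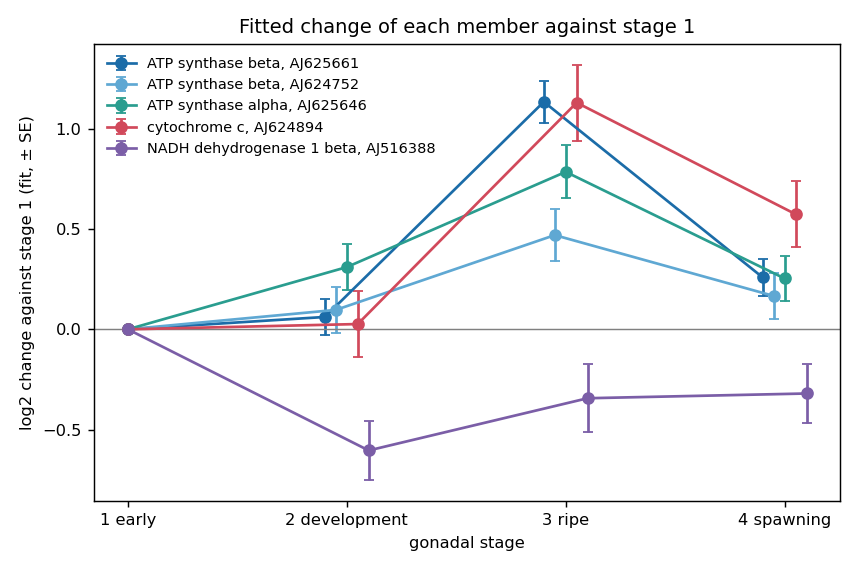
Fitted log2 change against stage 1 (vertical axis, least squares over 16 arrays, bars are standard errors) at each gonadal stage (horizontal axis) for the 5 members. Both ATP synthase beta probes, the alpha subunit and cytochrome c are highest at the ripe stage, from 0.47 to 1.13, and the complex I subunit lies between -0.60 and -0.32, of which the stage 4 value was 0.04 without the arrays of stage 4 against stage 1.

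The closing comparison of stage 4 with stage 1 gives a check that the choice of the members did not rest on directly. The sum of the 3 steps from stage 1 to stage 4 should equal the direct ratio of stage 4 to stage 1, and the difference, called the loop mismatch here, is independent of the fitted stage changes, although the spread it adds entered the statistic behind the list. For AJ625661 the steps summed to 0.39 and the direct ratio was 0.21, a mismatch of 0.18 (SE 0.21, limma adjusted p = 0.645). With the blocks without signal left out it was 0.20 (limma adjusted p = 0.641). The alpha subunit had 0.35 against 0.22, a mismatch of 0.13 (SE 0.27, limma adjusted p = 0.809). For these 2 probes the mismatch was smaller than its standard error.

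For AJ624752 the steps summed to 0.45 against a direct 0.07, a mismatch of 0.38 (SE 0.25, limma adjusted p = 0.366). For the complex I subunit they were 0.04 and -0.44, a mismatch of 0.48 (SE 0.32, limma adjusted p = 0.398). Cytochrome c had the widest gap of the 5, with steps that summed to 1.23 and a direct ratio of 0.35, a mismatch of 0.88 (SE 0.31, limma adjusted p = 0.0765). With the blocks without signal left out it was 0.96 (limma adjusted p = 0.0715). None of the 5 was called for loop mismatch by the same rule (0 of 5), beside 5.78% of all probes, while at an unadjusted p under 0.05 limma gave 1 of 5, cytochrome c. With a dye term in the fit the same mismatch of cytochrome c had an adjusted p of 0.00363 and was called; over all alternatives its adjusted p ran from 0.00363 to 0.907 and the mismatch from 0.29 to 1.06. All 5 mismatches were above 0, beside a median of 0.11 over all probes and a median absolute mismatch of 0.35, but those of AJ625661 and the alpha subunit reached -0.26 and -0.24 under other settings. The fitted course of cytochrome c depended on which route was used: without the arrays of stage 2 against stage 1 its fitted value was -0.63 at stage 2 and 0.69 at stage 3.

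**Figure D3:**
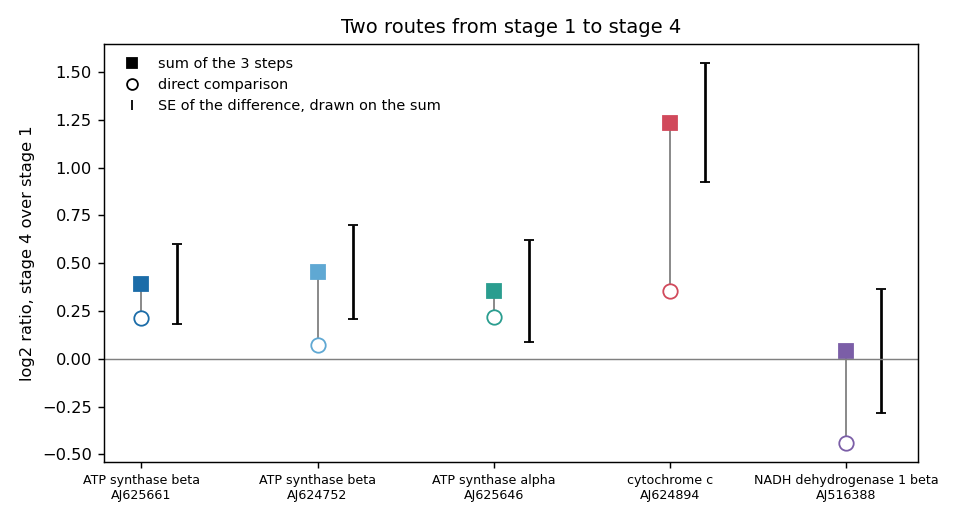
Log2 ratio of stage 4 over stage 1 (vertical axis) of each member (horizontal axis) by the sum of the 3 steps (squares) and by the direct comparison (open circles), with the standard error of their difference drawn on the sum. The routes lie 0.13 and 0.18 apart for the alpha subunit and AJ625661, and 0.88 apart for cytochrome c.

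A dye effect, the part of the ratio that follows Cy5 over Cy3 whatever the stages, was tested on the same arrays. Cytochrome c was the only member called, at 0.25 (SE 0.04, limma adjusted p = 0.0351), 1 of 5 members beside 1.04% of all probes. Over 28 alternatives its dye effect ran from 0.17 to 0.74 with adjusted p from 1.17e-05 to 0.162, and it was called in 12 of them. For the other 4 members the effect lay between -0.05 and 0.08, with limma adjusted p from 0.501 to 0.732, and of these AJ624752 and the alpha subunit were each called under 1 alternative. Since each comparison has 2 arrays of either orientation, this effect cancels in the means where all 4 arrays carry signal. For AJ625661 and cytochrome c between stages 2 and 1, 1 of the 2 arrays with stage 2 in Cy3 was without signal. In that comparison the effect does not cancel for them, with or without that array. The dye effect is seen in the ripe step of cytochrome c, with a mean of 1.60 where stage 3 was in Cy5 and of 1.05 where it was in Cy3, both above 0.

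The intensities of single channels gave the level of each probe at each stage, on a log2 scale normalized across the arrays, with 8 channels a stage. These levels come from different arrays, so that they hold the differences between arrays that the ratios cancel, and levels of different probes are not compared. In AJ625661 the early and development levels were 7.42 ± 0.22 and 7.57 ± 0.08 (SD, n = 7 for both), the ripe level was 8.77 ± 0.46 and the spawning level 7.82 ± 0.43 (SD, n = 8 for both). The channels of the block without signal, at 5.88 and 5.93, are left out of these means. Its lowest ripe channel, at 8.23, lay above every channel of stages 1 and 2 and overlapped those of stage 4, which reached 8.63. The stage changes on these arrays chose the probe, so nothing is read from this separation. The order was stage 3, 4, 2 and 1, and neighbours among the last 3 lay within the sum of their SDs.

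Cytochrome c was at 9.12 ± 0.24 and 9.27 ± 0.36 (SD, n = 7 for both) in early and development mantle and at 10.2 ± 0.31 and 9.50 ± 0.33 (SD, n = 8 for both) in ripe and spawning mantle, without channels at 6.10 and 6.12 in the block without signal. With those 2 channels the SD at stages 1 and 2 was 1.09 and 1.16, and the means were 8.74 and 8.88. Its ripe channels began at 9.75, above the highest channel of stages 1 and 2 and overlapping those of stage 4 only up to 9.84. Nothing is read from this separation either, since the stage changes chose this probe as well. Here too the order was stage 3, 4, 2 and 1, with neighbours 4 and 2 and neighbours 2 and 1 within their spread.

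AJ624752 was at 8.50 ± 0.42, 9.09 ± 0.28, 9.46 ± 0.40 and 8.66 ± 0.49, and the alpha subunit at 8.27 ± 0.41, 8.77 ± 0.37, 9.27 ± 0.50 and 8.55 ± 0.30 (SD, n = 8 for all, stages 1 to 4). For both the order was stage 3, 2, 4 and 1, and no pair of neighbours in it differed beyond the summed SD. The complex I subunit was at 7.98 ± 0.26, 7.51 ± 0.30, 8.09 ± 0.24 and 7.98 ± 0.36 (SD, n = 8 for all). Its highest mean was at stage 3 and its lowest at stage 2, with stages 1 and 4 equal between them. No neighbours differed beyond the summed SD. The fitted changes of this probe differ from these levels, with stages 3 and 4 below stage 1, at -0.34 and -0.32.

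**Figure D4:**
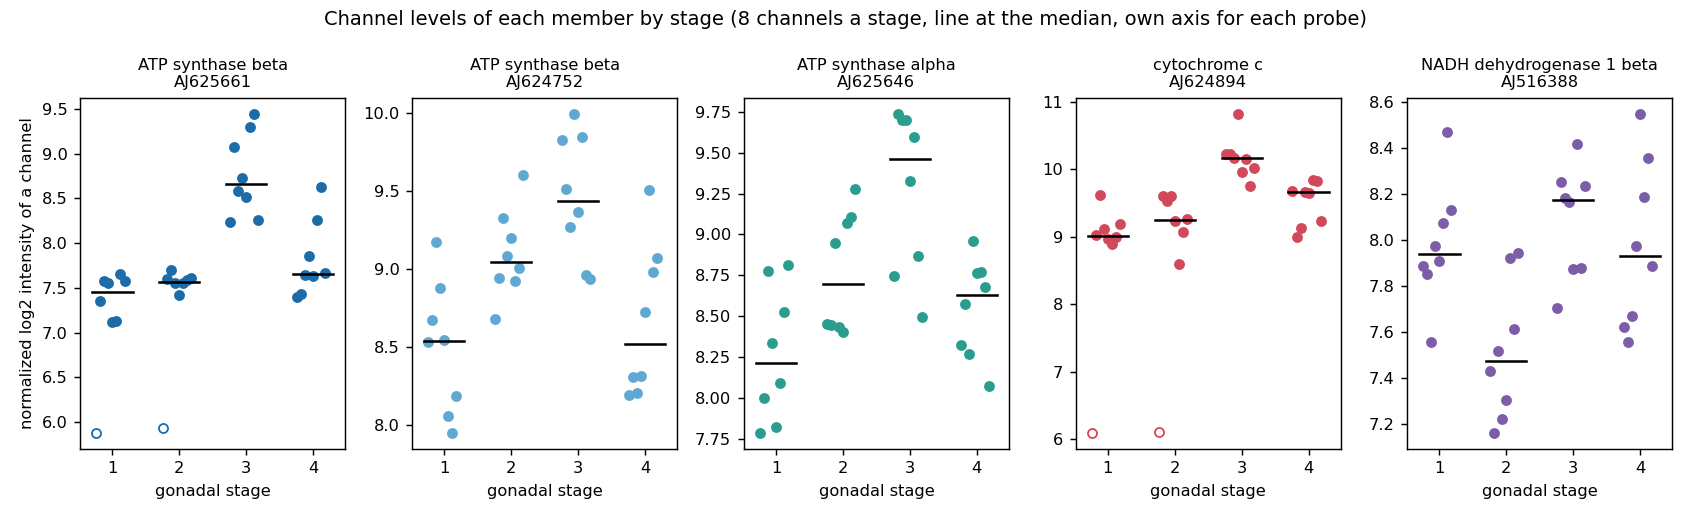
Normalized log2 intensity (vertical axis, a separate axis for each probe) of each member in the 8 channels of each gonadal stage (horizontal axis), with a line at the median. Open points are channels of the print-tip block without signal, from 5.88 to 6.12, and the ripe channels of AJ625661 and cytochrome c begin at 8.23 and 9.75.

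The member genes were set beside the other energy genes of the same list. The 4 further nuclear-encoded genes were cytochrome c oxidase subunit IV (AJ624079, a subunit of complex IV), the adenylate translocator (AJ624842, which exchanges ADP and ATP across the inner membrane), the mitochondrial phosphate carrier (AJ624083, which brings in the phosphate that ATP synthase uses) and nicotinamide nucleotide transhydrogenase (AJ624576, which makes NADPH from NADH). Of these 4, 1 was called higher and 1 lower between stages 3 and 2. Transhydrogenase was at 1.46 ± 0.58 (SD, n = 4), with arrays from 0.72 to 2.02, all above 0. Cytochrome c oxidase subunit IV was at -0.88 ± 0.14 (SD, n = 4), with arrays from -1.08 to -0.77, all below 0. The adenylate translocator and the phosphate carrier were at 0.05 ± 0.14 and -0.08 ± 0.18 (SD, n = 4 for both). The ripe ratio thus had opposite signs for cytochrome c and for a nuclear subunit of the oxidase that receives its electrons, under each background correction and normalization tried. Their loop mismatches were 0.88 and -0.82 (limma adjusted p = 0.0765 and 0.0515). The adenylate translocator, at 0.71 ± 0.22 (SD, n = 4), was the 1 of 4 called between stages 4 and 1, where 0 were called with scale normalization, 2 with plain subtraction or print-tip loess and 3 with median centring. Between stages 2 and 1, 0 of 4 were called (2 with print-tip loess, 1 with median centring), and between stages 4 and 3, 0 of 4.

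The 19 probes for mitochondrially encoded transcripts comprised ND5 (AJ623584), COX1 (AJ623880), cytochrome b (AJ624838 and AJ624584) and 15 clones listed under the mitochondrial genome, which share 1 molecule and are not independent. Between stages 3 and 2, 17 of 19 were called higher, beside 8.39% of all probes. The ratios of the 19 ran from 1.21 to 3.07. Their median was 2.27, beside a median of 0.03 over all probes and 0.51 over the 5 members. All 19 exceeded both ATP synthase beta probes, the alpha subunit and the complex I subunit in this step, and 16 of 19 exceeded cytochrome c. Between stages 2 and 1 the medians were -0.52 for the mitochondrial probes (7 of 19 called lower) and 0.19 for the members, but with median centring the mitochondrial median was 0.03 and 0 of 19 were called lower. In that comparison 2 of the 19 lie in the block without signal on replicate 1. With it left out the median was again -0.52, with 7 of 19 called lower. Between stages 2 and 1 the complex I subunit, at -0.48, had 13 of the 19 below it and 6 above it, while AJ625661 had 18 and each of the other 3 members all 19 below it.

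From ripe to spawning mantle the medians were -0.77 (11 of 19 called lower, 2 with median centring) and -0.34, beside -0.02 over all probes. In that step AJ625661, at -0.83, lay within the mitochondrial range, with 7 probes below it and 12 above it. In spawning against early mantle they were 0.16 (1 of 19 called lower) and 0.21, beside -0.09 over all probes, and with median centring the mitochondrial median was 1.24 with 8 called higher. With median centring the median of the 5 members was 0.80, 0.06, 0.16 and 0.90 for stages 2 against 1, 3 against 2, 4 against 3 and 4 against 1. The loop mismatches of the 19 mitochondrial probes ran from -0.11 to 1.46. Their median was 0.62, beside 0.38 over the 5 members, and 3 of 19 were called, beside 5.78% of all probes. These lists come from the list that was made on these arrays, so their counts are a description of it.

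**Figure D5:**
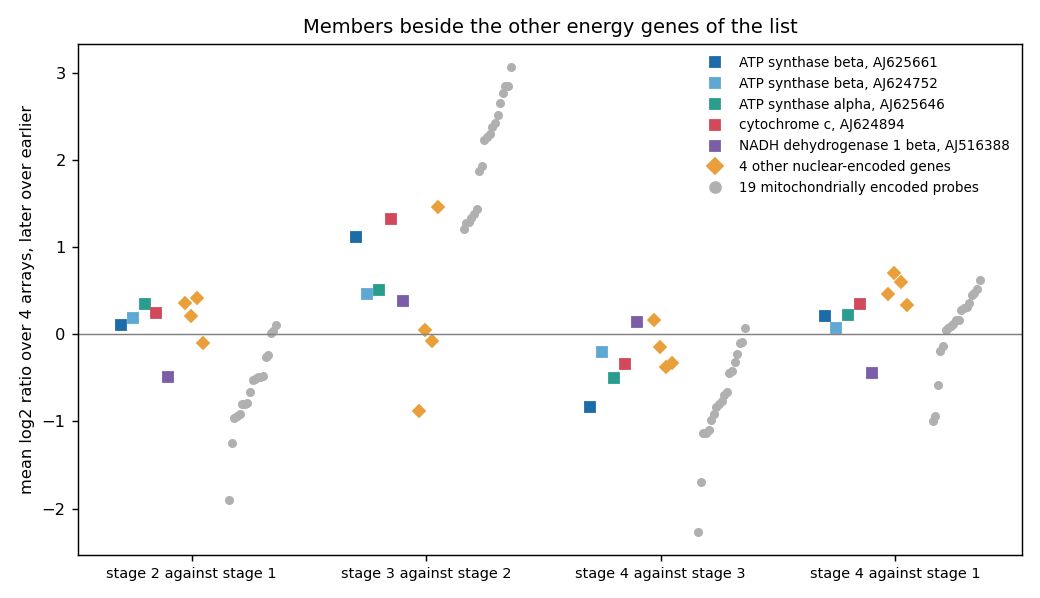
Mean log2 ratio over 4 arrays (vertical axis, later over earlier stage) in each direct comparison (horizontal axis) for the 5 members (squares), 4 other nuclear-encoded energy genes (diamonds) and 19 mitochondrially encoded probes (grey points, sorted by value). In the ripe step the grey points run from 1.21 to 3.07 and the members from 0.38 to 1.32.

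Likeness of the courses was described by the cosine between the 16 log2 ratios of 2 probes, which is 1 for ratios of the same proportions. The probes share arrays, so that the value is given without a test. Among the members the highest cosines were 0.86 between AJ625661 and cytochrome c and 0.84 between AJ625661 and the alpha subunit, and the 2 beta probes had 0.75. The alpha subunit had only 1 probe of the array more like it than AJ625661. Seen from AJ625661, however, cytochrome c ranked 35, the alpha subunit 46 and the second beta probe 87 among the other probes. AJ625661 ranked 28 for cytochrome c and 16 for AJ624752. The complex I subunit lay between -0.14 and 0.15 with each of the other 4. The median cosine with the 19 mitochondrially encoded probes was 0.84 for AJ625661, 0.78 for cytochrome c and 0.61 for AJ624752. It was 0.55 for the alpha subunit and 0.37 for the complex I subunit, beside medians from -0.04 to 0.14 with all probes. The members and these 19 probes come from the list made on these arrays, so nothing is read from the gap to all probes.

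Apart from the members, the described probes of the list most like AJ625661 were a clone of the mitochondrial genome (Myt01-019A06, cosine 0.96, the first of all probes), a proteasome beta subunit (AJ516664, 0.94) and an ankyrin-related ADP-ribose polymerase (AJ623727, 0.92). For AJ624752 they were ND5 (AJ623584, 0.84), an armadillo repeat protein (AJ516567, 0.79) and a radial spoke head protein (AJ624749, 0.77). For the alpha subunit they were a uromodulin precursor (AJ625554, 0.80), a member of the ras family (AJ625027, 0.78) and a clone of the mitochondrial genome (Myt01-019B06, 0.78). For cytochrome c they were a testicular haploid expressed gene (AJ625516, 0.94), a foot protein variant (AJ626112, 0.91) and an axonemal dynein intermediate chain (AJ625992, 0.91). For the complex I subunit they were a precollagen (AJ623789, 0.87), a minichromosome maintenance component (AJ516412, 0.85) and a ribosomal protein (AJ625548, 0.81).

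Markers of the cell types in the mantle moved in the same comparisons. They too were taken from the list made on these arrays, so their counts are a description. In bulk tissue fewer cells of a type and less RNA per cell cannot be told apart. Between stages 3 and 2, where 8.39% of all probes were called higher, 3 of 3 egg envelope and germ granule probes were (1.09 to 2.16). So were 2 of 2 axoneme probes (0.57 and 1.61). Of these, 1 in each list was not called with median centring, with plain subtraction or with the first spot only. The radial spoke head probe, at 0.57, was also not called with scale normalization. Of the 2 muscle probes, unc-89 was at 1.24 and the sarcoplasmic calcium-binding protein at -0.80. Mantle gene 8 was at -1.40 and alpha-amylase, a digestive enzyme, at -0.02. Egg probes AJ625872 and AJ623653 were called lower between stages 2 and 1 (-1.41 and -1.71), but not without background correction. Between stages 4 and 1 they were called lower too (-1.63 and -2.06). The third, AJ625914, was called higher between stages 4 and 3 (1.46). Loop mismatches of these 3 were 2.12, 1.94 and 2.09, of which only the last was called. Alpha-amylase was called lower between stages 2 and 1 (-0.95). The log2 of the summed levels of the 3 egg probes ran from 9.68 to 11.2 at stage 1, 8.70 to 11.2 at stage 2, 11.2 to 12.4 at stage 3 and 8.65 to 12.7 at stage 4. In such a sum the brightest probe weighs most. The 2 axoneme probes ran from 7.41 to 8.69, 7.86 to 8.48, 8.92 to 9.40 and 7.996 to 8.69, and mantle gene 8 from 8.70 to 10.4, 8.62 to 10.3, 6.70 to 8.04 and 6.97 to 8.11. The log2 of the summed muscle levels ran from 7.84 to 8.67, 8.19 to 8.73, 7.83 to 8.87 and 7.53 to 8.07, and alpha-amylase from 6.97 to 8.32, 6.16 to 6.88, 6.22 to 6.76 and 6.35 to 9.08. The lower alpha-amylase levels lie close to the 5.88 to 6.12 read in the block without signal. The part of these shifts in the course of the energy genes was not tested.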

How the data were processed

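The intensity values analysed here were deposited per array: mean spot and median local background intensity of the Cy5 and Cy3 channels, which the authors read with GenePix. The deposited log2 ratios of the series matrix, which the authors background-corrected and loess-normalized with limma (version not given in the sources used here), run later over earlier stage. They were used to tie identifiers to clones and as an alternative. RNA was primed with oligo-dT. Each array held 4560 spots, of which 608 were empty, 112 were for alignment and the rest were 1920 probes printed on 2 spots each. The members and lists were chosen with earlier results of these data known.

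Intensities were background-corrected (normexp, offset 50) and loess-normalized with control spots given no weight in limma 3.58.1 (R 4.3.3). Ratios were turned to later over earlier stage and spots averaged. One mean per direct comparison was fitted over all 16 arrays by lmFit and eBayes (prior share 0.01), and the loop mismatch was a contrast of these means. Channel levels were normalized across arrays by Aquantile. The fits were tested on simulated data. Members, 4 further nuclear energy genes and, per member, the 3 described probes of highest cosine are named, with the mitochondrial probes as a list. Alternatives were other background corrections, normalizations, spots, filters, weights, thresholds, a dye term, the replicate block, fits of single comparisons and each array left out. Leaving out print-tip blocks without signal was chosen after seeing the data. Arrays have no counting depth, and their number limits the precision. No 2 arrays of a comparison agreed within the noise between spots (variance ratio at least 1.39). No sequences of the probes are printed.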

Additional observations from a re-analysis of the deposited data

Results flagged for a closer look

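Of 40 groups of arrays or channels, 6 had a value far from the rest by Dixon's ratio, where chance flags about 1 in 20. AJ625661 was at -0.0023 on replicate 3 of stage 4 against stage 1, with the other 3 arrays between 0.28 and 0.29. On replicate 1 of stage 2 against stage 1 the channel levels of AJ625661 were 5.88 at stage 1 and 5.93 at stage 2, and those of cytochrome c (AJ624894) were 6.10 and 6.12, all 4 in print-tip block 6, where 10.8% of probe spots exceeded the empty spots. Cytochrome c was at 10.8 at stage 3 in Cy5 on replicate 4 of stage 3 against stage 2, the array whose label conflicts, against 9.75 to 10.2 in the other channels of that stage.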

How the results depend on the processing

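Of 264 direct member ratios that an alternative changed at all, 27 moved by over 1 SD of the 4 arrays, 18 of them among the 20 ratios under median centring. Median centring gave 0 members called between stages 3 and 2 (from 2) and 0 between stages 4 and 3 (from 1), and 3 called for the dye effect (from 1); the cause was not tested. Without the condition on B, or with a prior share of 0.1, 4 were called between stages 3 and 2 and 2 between stages 4 and 3, and array weights gave 2 in the latter. The dye term gave 1 member called for loop mismatch (from 0). For the dye effect 0 members were called with plain subtraction, no background correction, print-tip loess, either spot alone or the replicate block. Leaving out each array gave 0 to 1 for the dye effect (0 for 10 of 16 arrays) and changed no other count of members. Without the arrays of stage 4 against stage 1, the fitted change of AJ516388 at stage 4 was 0.039 in place of -0.32. The replicate block changed no other call of a member (2, 1, 0 and 0 called in the direct comparisons of stages 3 and 2, 4 and 3, 2 and 1, and 4 and 1); deviations of same-numbered arrays correlated between -0.21 and 0.17, with 4 of 16 over 0.1, and were not taken to pair the arrays, although the 4 between stages 3 against 2 and 4 against 3 were all positive (0.095 to 0.17). Leaving out blocks without signal changed no count of members.

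Over all probes, counts that differed by over 1.5 times were 308 (from 125), 543 (from 284), 174 (from 101), 463 (from 144) and 260 (from 111, loop mismatch) without the condition on B; 64 (from 125) and 42 (from 144) with each comparison fitted alone; 300 (from 144) and 63 (from 101) with median centring; and 90 (from 144) and 159 (from 101) with scale normalization. The share of higher calls between stages 2 and 1 was also 6.82% with plain subtraction and 49.2% without background correction, and between stages 4 and 1 it was 51.9%, 26.9% and 18.9% with plain subtraction, deposited ratios and scale normalization.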
